A study of Arabidopsis thaliana with 4 samples.

Results

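The comparison described here set the shoot apices of the as1-1 and as2-1 mutants of Arabidopsis thaliana together against those of wild type and AS2 overexpressing plants. The sides were fixed by genotype, with 2 arrays on each, and they held all 4 arrays of the series. A side therefore joined 2 different genotypes with 1 array each, and neither side held replicates. All 4 genotypes were in the Col-0 background, and the tissue was the shoot apex with its leaf primordia after 14 days on soil in 16 hours of light and 8 hours of dark. The age of the plants was thus the same in all groups, and no further treatment was labelled. No source used here gives the promoter that drove AS2 in the overexpressing line or how many plants were pooled for an array. The as1-1 line is named for a mutation in AS1 and not in AS2, so the contrast is not one of AS2 function as such. The sides are called the mutants and the non-mutant arrays below, since neither as1-1 nor as2-1 was labelled on the latter. The genotype label of the overexpressing line reads AS2 overexpressing mutant, so non-mutant is only a short name here. The samples' descriptions mention embryos, against the tissue and growth labels, which were used here.

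The products of AS1 (MYB class) and AS2 (LBD class) form a complex that represses transcription in leaf primordia. It keeps class I KNOX genes, which belong to the meristem, silent in leaves, and it limits genes of the abaxial (lower) leaf side. Leaves of both mutants are lobed and rumpled, and excess AS2 shifts leaves towards the adaxial (upper) fate. Loss of either partner disables the complex, so the comparison asks which transcripts stand apart when either is mutated. None of the probe sets that carry a gene name was listed for AS1, AS2 or a class I KNOX gene, so these genes were not analysed here and the mutated genes could not be checked on their own arrays.

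The values were linear signal intensities for 22746 probe sets per array, and between 58.97% and 60.91% of them lay above a signal of 43 on each array. Signals under 43 were raised to that floor and put on the log2 scale. The side difference is the mean of the 2 mutant values minus the mean of the 2 non-mutant values. The gap inside a side is the difference between its 2 arrays, and it holds array error and genotype difference together. In all 13879 probe sets lay above the floor on at least 2 arrays and were compared, of which 7577 carried 1 gene name. Named reference genes stayed close, with side differences from 0.03 to 0.41 on the log2 scale over 4 genes. The leaf primordium genes YAB3 and PHV were above the floor on all 4 arrays. CLV3, a meristem gene, and LBD29, a gene of lateral root formation, were below it on all 4, at signals from 1.6 to 23.2 and from 1.0 to 24.6. The antenna gene LHCB4.1 reached 6937.2 to 9942.2.

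With signals floored at 43, probe sets higher on both mutant arrays outnumbered those lower. A probe set was called when the side difference was at least 1 on the log2 scale, which is 2-fold, and also larger than the gap inside each side, so that the 4 arrays fell into 2 groups that did not overlap. By this rule 211 probe sets (1.52% of those compared) were called, 146 higher (1.05%) and 65 lower (0.468%) in the mutants. Of these, 102 carried 1 gene name, 66 higher and 36 lower. The sizes were moderate, since 179 of the 211 differed by less than 3-fold, and 10 differed by at least 2 on the log2 scale. In 61 (0.44%) each mutant array stood at least 2-fold from each non-mutant array. The median geometric mean signal was 145.1 for probe sets called higher and 209.4 for those called lower, against 189.8 over all compared. The balance was 124 higher and 77 lower with arrays centred on their medians, and with no floor it turned to 579 higher and 1233 lower.

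Whether the side difference exceeded the spread inside the sides was also asked with limma, taking the 2 genotypes of a side as if they were replicates. No probe set passed an adjusted p of 0.05 (Benjamini-Hochberg over all 13879), the lowest adjusted p being 0.101, while 2114 (15.2%) had an unadjusted p under 0.05 in that limma fit. All 211 called probe sets were among these 2114, with limma adjusted p from 0.101 to 0.273. The rule and limma use the same difference and gaps, so this overlap is no separate support for the calls. When only the 12687 probe sets above the floor on all 4 arrays were fitted, 12 (0.0946%) passed, 9 higher and 3 lower, each at a limma adjusted p of 0.0486. The named ones were AT5G64110 and AT3G09440, higher, and AT5G16030, lower. Each p measures only the spread between 2 genotypes on a side, so the counts below describe these 4 arrays. Leaving out wild type gave 266 past a limma adjusted p of 0.05, leaving out AS2 overexpressing 233, leaving out as1-1 18 and leaving out as2-1 1. In those fits the lone array of a side is assumed to vary as the other side does.

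**Figure D1:**
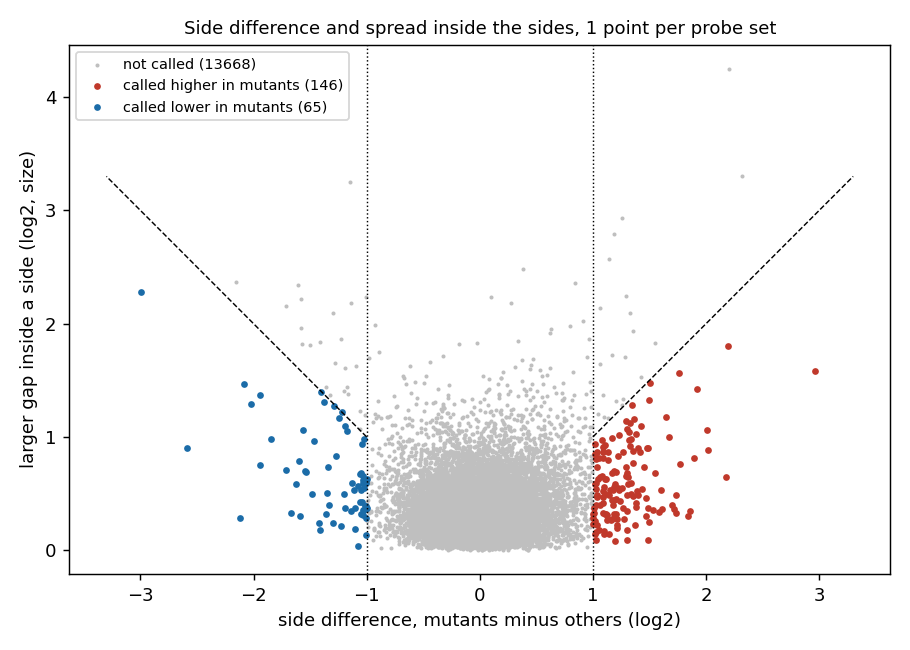
Side difference (mutants minus others, log2, horizontal) against the larger of the 2 gaps inside a side (log2, vertical), with 1 point for each of the 13879 probe sets compared. Dotted lines mark 2-fold and dashed lines mark where the difference equals the gap, and 146 red and 65 blue points lie outside the dotted lines and under the dashed ones.

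Of the listed polarity genes measured, YAB5 stood farthest apart. It encodes a YABBY factor that acts on the abaxial side of leaves. Its signal was 350.8 in as1-1 and 383.9 in as2-1, against 149.7 in wild type and 4.9 with AS2 overexpression, where it lay below the floor. The mutants were close to each other, and the 2 non-mutant arrays were far apart, in the order overexpression, wild type, mutants. With the floor, the side difference was a lower bound of 2.19 on the log2 scale, at least 4.57-fold (limma adjusted p = 0.179), and even the wild type array stood 2.34-fold below the lower mutant. YAB5 met the rule with the floor at 43 and not with the floor at the 25th percentile or with none, where its side difference was 2.96 and 3.76 but the gap between wild type and AS2 overexpression grew larger still. YAB3, its close relative, had a side difference of -0.04, with signals between 369.1 and 434.3 on all 4 arrays. Of 10 abaxial genes listed, these 2 were named on the array.

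On the adaxial side PHV, an HD-ZIP III transcription factor gene, was the 1 named member of 5 listed. It had signals of 303.3 and 275.4 in the 2 mutants, 301.9 in wild type and 473.3 with AS2 overexpression, so the mutants and wild type lay together and the overexpressing array alone was high (side difference -0.39). AGO7, the Argonaute of the trans-acting small RNA pathway that curbs abaxial ARF genes, was at 55.2 and 82 in the mutants and at 24.9 and 45.2 in wild type and the AS2 overexpressing array. These values lie around the floor, and its side difference of 0.61 was not called.

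Genes for proteins that loosen or remodel the cell wall supplied some of the tightest differences. GH9B8, a glycosyl hydrolase family 9 gene, had signals of 179.2 in as1-1 and 178.4 in as2-1 against 66 in wild type and 61.9 with AS2 overexpression. The 2 arrays of each side were nearly equal, and the sides were 2.8-fold apart (limma adjusted p = 0.101). EXPA20, an alpha-expansin, was at 154.7 and 130.6 in as1-1 and as2-1 against 50.9 and 49.8 in wild type and the AS2 overexpressing array, 2.82-fold higher in the mutants (limma adjusted p = 0.105). EXLA2, an expansin-like gene, was at 96.8 and 87.6 against 41.1 and 43.3, at least 2.13-fold higher, with its non-mutant values at the floor. All 3 lost their calls with the floor at the 60th percentile, a signal of 128.6, where the non-mutant values of GH9B8 and EXPA20 were raised to it and all 4 arrays of EXLA2 lay under it.

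Most measured members of the wall family lists were not called. A family list held genes matched by words in their names or synonyms, so genes without such words were not counted. Of 11 expansin and expansin-like genes above the floor, EXPA20 and EXLA2 were called higher and 0 lower, against 1.05% higher and 0.468% lower of all probe sets compared, and the list median was -0.06 against 0.02 over all probe sets compared. EXLB1 was not called and its sides overlapped, at 46 and 86.9 in the mutants, 56.1 in wild type and 156.7 with AS2 overexpression. Of 5 glycosyl hydrolase genes GH9B8 was called, against 1.52% of all probe sets compared. A positive side difference was found in 4 of the 5, against 52.5% of all, among them GH9C2, at 965.7 and 1006.4 in the mutants against 548.2 and 600.1. XTH32, a xyloglucan endotransglucosylase, came close to the threshold at 502 and 511.6 against 335.9 and 210.5 (side difference 0.93), and XTH16 did not (0.18). The 3 measured pectin enzyme genes had side differences from 0.02 to 0.72, and 0 were called.

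**Figure D2:**
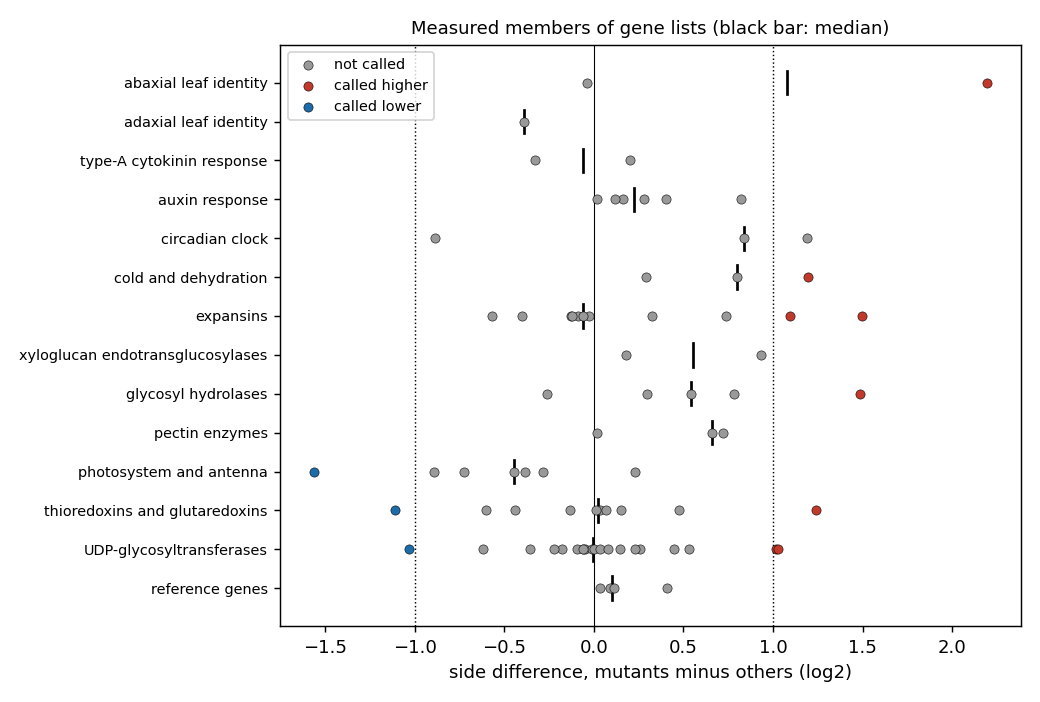
Side difference (mutants minus others, log2, horizontal) of each measured member of 14 gene lists, with red points for genes called higher, blue for genes called lower, grey for the rest and a black bar at the list median. YAB5 lies farthest right at 2.19 and LHCB4.2 farthest left at -1.56, and most grey points lie close to 0.

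Hsp70-2 and GRXC1 were called higher. Hsp70-2, a cytosolic chaperone gene, had signals of 337 and 339.3 in as1-1 and as2-1, against 129.9 in wild type and 171.6 with AS2 overexpression. The mutants did not differ from each other beyond 1.01-fold, and the sides were 2.26-fold apart (limma adjusted p = 0.146). Without the wild type array its side difference was 0.98, just short of the threshold. Hsp70-2 was the 1 measured of 2 genes in the heat shock list, against 1.05% called higher of all probe sets compared. The list was matched by gene names and missed genes without such words. AT3G09440, also a chaperone gene, was not in it and was called 2.99-fold higher. GRXC1, a glutaredoxin gene, was at 182.6 and 135.2 against 66.9 and 65.9 (2.37-fold), with a side difference of 0.29 and no call with the floor at the 60th percentile.

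Among the remaining named genes with the largest differences on the higher side, AT1G27030 was the most distant. Its signals were 420.2 and 274.9 in as1-1 and as2-1, against 114.2 in wild type and 62 with AS2 overexpression, 4.04-fold apart. AT5G64110 (3.05-fold), AT5G22310 (3.04-fold) and AT1G62500 (2.93-fold) followed, each with every mutant signal at least 2-fold above every non-mutant one. AT3G09440 was at 1397.6 and 1770.5 in the mutants against 577.3 and 479.3, which is 2.99-fold (limma adjusted p = 0.101). AT4G09890 stood 2.6-fold higher, with 434 and 412.3 in the mutants against 188 and 141. The others were AT5G01870, AT1G67865, AT5G50335, AT1G62790, AT4G00780, AT1G64710 and AT2G29660, from 2.46-fold to 2.68-fold. AT1G67865 was uneven between the mutants, at 342.9 in as1-1 and 141.4 in as2-1, and without as1-1 its side difference was 0.71. AT5G01870 (0.87) and AT4G00780 (0.83) came under 1 on the log2 scale without the AS2 overexpressing array, AT1G62790 (0.85) without wild type and AT2G29660 (0.96) without as2-1. With the floor at the 60th percentile AT5G22310 (0.16), AT1G67865 (0.78), AT1G62790 (0.98) and AT2G29660 (0.68) lost their calls.

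**Figure D3:**
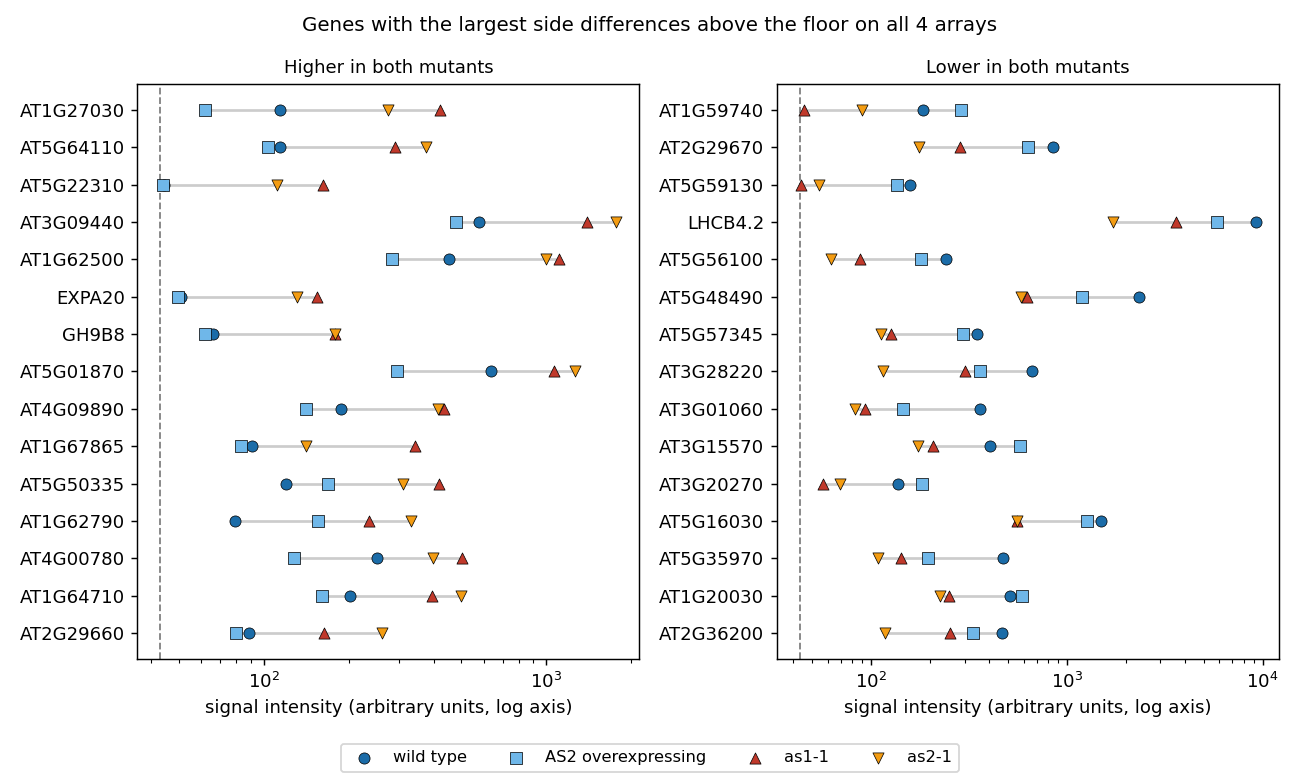
Signal intensity (log axis) on the 4 arrays of the 15 named genes per direction with the largest side differences among called genes above the floor on every array, with the dashed line at the floor of 43. In each row the triangles of the mutants lie wholly to one side of the circle and square of wild type and AS2 overexpression, as at 179.2 and 178.4 against 66 and 61.9 for GH9B8.

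Among genes lower in the mutants, AT1G59740, named NRT1/PTR family 4.3 in the reference table and thus of the nitrate and peptide transporter family, had the largest difference of those with a single gene name and above the floor on all arrays. Its signals were 45.5 and 89.9 in as1-1 and as2-1 against 183.6 in wild type and 287 with AS2 overexpression, 3.59-fold lower in the mutants (limma adjusted p = 0.151). AT2G29670 followed with 285.4 and 174.4 against 849.5 and 632.8 (3.29-fold), and AT5G59130 with 43.8 and 54.1 against 157.8 and 135.7 (3.01-fold). AT5G16030 was nearly equal in the mutants, at 554.7 and 558.8 against 1492.4 and 1261.9 (2.46-fold, limma adjusted p = 0.101). AT5G57345 was similar, at 126.3 and 112.2 against 347.8 and 293.8 (2.69-fold). The remaining ones were AT5G56100, AT5G48490, AT3G28220, AT3G01060, AT3G15570, AT3G20270, AT5G35970, AT1G20030 and AT2G36200, between 2.28-fold and 2.8-fold lower. In AT3G01060, AT5G35970 and AT5G48490 wild type was 1.95-fold to 2.47-fold above the AS2 overexpressing array, and without wild type their side differences were -0.73, -0.66 and -0.99. Without as2-1 the first and second stood at -1.30 and -1.10, less than the gap between wild type and AS2 overexpression. AT2G36200 (-0.94) and AT3G28220 (-0.96) also came short of the threshold without wild type, and without as2-1 they stood at -0.64 and -0.70. With the floor at the 60th percentile AT1G59740 (-0.84), AT5G59130 (-0.19), AT5G56100 (-0.69), AT3G01060 (-0.82), AT3G20270 (-0.30) and AT5G35970 (-1.17) lost their calls.

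Most measured genes of the photosystem and antenna list had negative side differences, and 1 of them was called. LHCB4.2, a minor antenna protein of photosystem II, was at 3592.7 in as1-1 and 1726 in as2-1, against 9224.4 in wild type and 5852.9 with AS2 overexpression. The sides did not overlap and differed 2.95-fold (limma adjusted p = 0.181), although the mutants themselves were 2.08-fold apart. LHCB4.2 was the 1 called of 7 measured genes in this list of photosystem, antenna and chlorophyll genes, against 1.52% of all probe sets compared. A negative side difference was found in 6 of the 7, while 52.5% of all were positive, and the list median was -0.45. PORB, an enzyme of chlorophyll synthesis, stood at -0.89 and PSBY, a small photosystem II protein, at -0.72, while LHCB4.3, at signals near 100, stood at 0.23. RCA, the activase of Rubisco, was at 4971.3 and 5583.6 in as1-1 and as2-1 and at 9159.9 and 6761.6 in wild type and the AS2 overexpressing array (-0.58).

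The 3 named markers of chloroplast-rich leaf of 4 listed, RCA, LHCB4.1 and LHCB4.2, summed to 28326.5 in wild type, 21815.1 in the AS2 overexpressing array, 16282.7 in as1-1 and 14246.8 in as2-1, and none was at 0. This list moved with the sides, and its part in the other differences was not tested. In a bulk apex, fewer cells of a type and less RNA per cell cannot be told apart. TRXF2, a chloroplast thioredoxin gene, was at 483.9 and 335.2 in the mutants against 1046.3 and 722 (2.16-fold lower), and its side difference was -0.84 without wild type and also without as2-1. Of 10 measured genes in the thioredoxin and glutaredoxin list, TRXF2 was the 1 called lower and GRXC1 the 1 called higher. The shares over all probe sets compared were 0.468% and 1.05%, and the list median was 0.02 (-0.02 after array centring).

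DFR and 3 UDP-glycosyltransferase genes were among those called. DFR, the dihydroflavonol reductase of anthocyanin synthesis, was at 85.3 in as1-1 and 133.8 in as2-1 and below the floor in wild type (41.6) and the AS2 overexpressing array (22.7), at least 2.48-fold higher in the mutants. Without as2-1 its side difference was 0.99, and without as1-1 a single array lay above the floor, so it was not compared. With the floor at the 60th percentile it stood at 0.03. UGT78D1, a rhamnosyltransferase of flavonols, was at 455.9 and 699.4 against 374.1 and 207.5, and here the lower mutant and wild type were only 1.22-fold apart. UGT74B1, which acts in glucosinolate synthesis, was at 800.1 and 742.5 against 456.7 and 313.8 (2.04-fold). UGT88A1 went the other way, at 637.3 and 547.9 against 1484.7 and 982.6 (2.04-fold lower). The 3 UGT genes were those called of 20 measured genes in the UDP-glycosyltransferase list, against 1.52% of all probe sets compared. The list was matched by gene names, so a called family gene without such a name was not counted. The 20 differences were split 10 positive and 10 negative around a median of -0.0046. UGT78D1 did not meet the rule after array centring and after quantile normalization, and UGT74B1 after array centring. UGT78D1 and UGT74B1 stood at 0.59 and 0.76 without the AS2 overexpressing array, UGT78D1 at 0.71 without as2-1, UGT74B1 at 0.97 without as1-1, and UGT88A1 at -0.73 without wild type and -0.92 without as2-1.

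COR47 was called higher among 3 measured cold and dehydration genes. None of 3 measured clock genes was called, which with 1.52% of all probe sets called says nothing particular about them. COR27, a cold-regulated gene of the circadian system, differed by 1.19 between the sides, but wild type alone was low at 134, and the AS2 overexpressing array (925.1) lay among the mutants (953 and 675.7). The non-mutant arrays were 6.9-fold apart, so COR27 was not called, and without wild type its side difference was -0.21. GI, the evening clock gene GIGANTEA, was low in as2-1 alone, at 183.6 against 602.3 to 642.4 on the other 3 arrays. COR47, a dehydrin gene, did separate the sides, at 3044.8 and 2029.2 against 1264.5 and 934.7 (2.29-fold, limma adjusted p = 0.151), with side differences of 0.90 without as1-1 and 0.98 without the AS2 overexpressing array. COR15A, which protects chloroplast membranes in the cold, did not, being high in as1-1 only (1216.6 against 309.5 to 394), and COR15B stood at 0.29.

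In all, 45 of the 256 probe sets that differed at least 2-fold between the sides (1.84% of those compared) were not called, 21 higher and 24 lower. The gap between wild type and the AS2 overexpressing array was as large as the difference in 32 of the 45, and the gap between the mutants in 17, with 4 in both counts. MT1C, a metallothionein gene, showed the first pattern, at 1122 in wild type and 389.4 with AS2 overexpression against 2096.3 and 1499.8 in as1-1 and as2-1. Its sides did not overlap, but the non-mutant arrays differed 2.88-fold and the sides 2.68-fold. AT1G67870 and AT4G27300 were likewise lowest in the AS2 overexpressing array, while AT1G73480 was highest in wild type alone, at 296.1 against 109.1 or less elsewhere. AT3G22240 was high in as2-1 alone, at 626.1 against 76.4 to 117.1, and stood at -0.21 without as2-1.

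**Figure D4:**
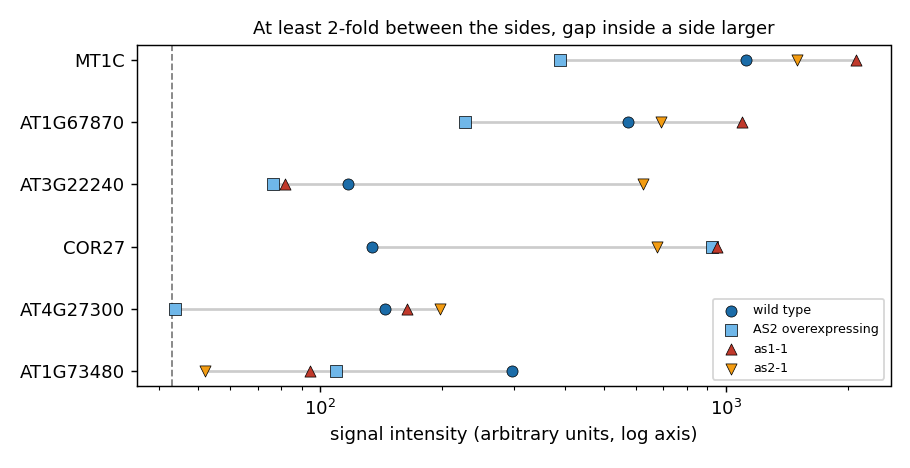
Signal intensity (log axis) on the 4 arrays of the 6 named genes with the largest side differences of at least 2-fold that a larger gap inside a side kept from being called, 5 higher and 1 lower in the mutants. COR27 is low in wild type alone (134), AT3G22240 high in as2-1 alone (626.1) and MT1C lowest in the AS2 overexpressing array (389.4).

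The order of the 2 arrays inside each side is not used by the side difference, although the rule limits its size. Among probe sets called higher in the mutants, wild type was above the AS2 overexpressing array in 109 of the 139 with a difference (78.4%), against 53.2% of all probe sets compared. The AS2 overexpressing array was thus the lowest of the 4 in most of them, as in YAB5, AT1G27030 and AT5G01870. Among probe sets called lower, wild type was also above the AS2 overexpressing array, in 44 of 65 (67.7%), so that there the overexpressing array mostly lay between wild type and the mutants. Over both directions, the AS2 overexpressing array was farther from the mutants than wild type was in 63.7% of 204, and in 59.6% after quantile normalization. The directions differed, with 109 of 139 among those called higher and 21 of 65 among those called lower. The pooled share therefore stands for neither direction, and the same share over all probe sets compared is not given here. Probe sets share an array and are not independent, so these shares describe the 4 arrays only.

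The rule limits the gap between the mutants on called probe sets. Even so, the mutants lay farther apart there than over all probe sets compared. The median size of their gap was 0.31 on the log2 scale over the 211 and 0.18 over all compared, and for the non-mutant arrays 0.42 and 0.23. A gap of at least 1 between the mutants occurred in 10 called probe sets (4.74%) and in 0.821% of all compared, and between wild type and AS2 overexpression in 21 (9.95%) and 2.23%. Probe sets called higher were split evenly between the mutants, with as1-1 above as2-1 in 74 of 146. Among the lower ones as2-1 was the lower of the mutants in 43 of 64 (67.2%), against 51.2% with as1-1 above as2-1 over all compared, and LHCB4.2, AT2G29670 and AT2G36200 were of this kind.

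**Figure D5:**
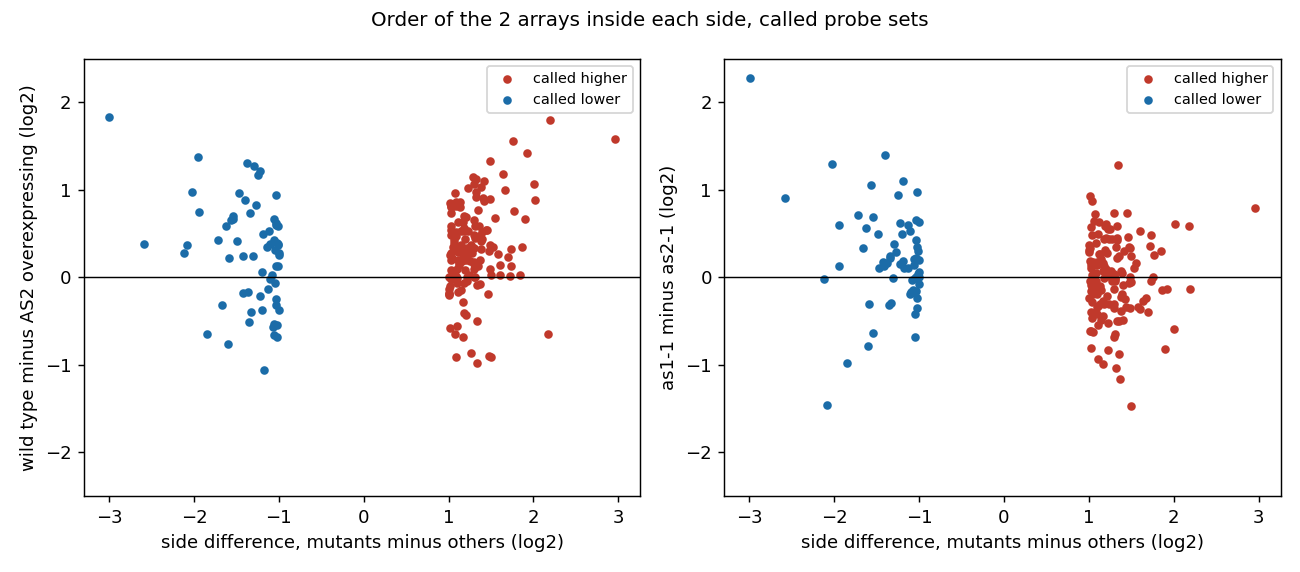
Difference between the arrays of a side (log2, vertical; wild type minus AS2 overexpressing on the left, as1-1 minus as2-1 on the right) against the side difference (log2, horizontal) for the 211 called probe sets. On the left most red points lie above 0 (109 of 139 with a difference) and so do most blue ones (44 of 65), while on the right the red points are evenly spread (74 of 146 above 0).

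All 6 measured genes of the auxin response list had a positive side difference, from 0.02 to 0.82 with a median of 0.22, while 52.5% of all probe sets compared were positive. None of them or of the 2 cytokinin response genes was called, which with 1.52% called over all says nothing particular about them. GH3.17, which conjugates auxin to amino acids, was the highest, at 281.3 and 283.9 in the mutants against 154.3 and 165.6. Of the type-A response regulators of cytokinin signalling, ARR15 stood at 0.20 and RR16 at -0.33, and RR16 was highest in the AS2 overexpressing array (209.9 against 111 to 136.5). The flowering promoter AGL24, of the MADS class, was at 76.4 and 114.3 in as1-1 and as2-1, and at 153.1 and 121.2 in wild type and the AS2 overexpressing array (-0.54, not called). SPCH, which starts the stomatal lineage, stood at 0.02.

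Called genes with names outside these lists, picked out after their values were seen, covered several functions. TUB1, a beta-tubulin gene, was at 835.5 and 569.9 in as1-1 and as2-1 against 308.9 in wild type and 271.5 with AS2 overexpression (2.38-fold). GSTU20, a glutathione transferase gene, was at 3728.5 and 4540.9 against 2595.8 and 1556.6 (2.05-fold). HAT3.1, a homeobox gene (2.14-fold), ATG8B, an autophagy gene (2.03-fold), and SMZ, a repressor of flowering of the AP2 family (2.03-fold), were also higher in the mutants. CP5 was lower, at 1575.4 and 1462.8 against 3755.6 and 2958.4 (2.2-fold).

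A further 4 genes picked out in the same way had arrays at the floor, so that their differences are lower bounds. AT3G53250 is a SMALL AUXIN UPREGULATED RNA gene that the auxin response list did not hold. It was at 297.8 and 197.7 in the mutants, 10 in wild type and 67.1 with AS2 overexpression, at least 4.52-fold higher in the mutants. AT1G06830 was at 173.1 and 140.3 against 43.8 and 39.7. AT3G49160 was at 40.6 and 43.7 in as1-1 and as2-1 against 207.6 and 170.6, at least 4.34-fold lower, and AT3G16120 at 39.8 and 53.7 against 116.1 and 130.7. In all, 41 of the 211 differences were such bounds, 33 on the higher side. Among genes with a whole side at the floor, AT4G22212 was higher in the mutants (120.2 and 62.9 against 30.3 and 1.5) and AT3G04000 lower (35.1 and 30.4 against 90.2 and 82.4).

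The called genes came from all 5 nuclear chromosomes, at between 1.18% (chromosome 4) and 1.4% (chromosome 5) of the named probe sets compared on each. On chromosome 3 the lower ones outnumbered the higher, 12 to 8, and on chromosome 1 the higher ones the lower, 21 to 5. Over all called probe sets with 1 gene name, 66 were higher and 36 lower. The counts per chromosome are small, and a difference in balance between chromosomes was not tested. Of 98 called genes with a locus in the TAIR10.1 gene order, 12 formed 6 pairs no more than 5 protein-coding genes apart. In 3 of these pairs the members went the same way and in 3 they went opposite ways. Such pairs were not counted among the other genes compared, so the number says nothing about clustering of called genes. AT2G29660 and AT2G29670 lie next to each other, the first 2.46-fold higher and the second 3.29-fold lower in the mutants. AT1G64710 (2.46-fold higher) and CP5 (2.2-fold lower) are also adjacent, and LHCB4.2 lies 2 genes from AT3G08920, which was lower too (side difference -1.10).

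Near the threshold the call was a matter of small amounts. The nearest called genes were AT3G52900, AT1G60890 and AT4G22212 on the higher side, at side differences from 1.00 to 1.02, and AT4G17810, AT3G04000 and AT5G42070 on the lower, the last at -1.01. Just outside were AT4G33130, AT3G14890 and AT1G06420, the last at 0.99, and AT5G19940, AT5G66520 and AT5G24260, the last at -0.97. Each of the 6 called ones lost its call without either of 2 of the 4 arrays. Of the called probe sets 109 had no single gene name here, 80 higher and 29 lower, and 4 of them are listed with several genes. The largest differences of all were among these, 1 at 2.96 (higher, a lower bound) and 1 at -2.99 (lower), with signals of 3956.5, 1109.8, 579.6 and 119.3 for the latter in wild type, AS2 overexpressing, as1-1 and as2-1.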

How the data were processed

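Total RNA from shoot apices was extracted with an RNeasy kit and biotinylated cRNA was hybridised to Affymetrix arrays, per the labels' protocols. The deposited values were linear signal intensities per probe set. Their software and scaling are not given in the sources used here, and the mean after dropping the highest and lowest 2% was between 198.4 and 198.5 on each array. Signals were floored at 43 and put on the log2 scale without further normalization. A single gene was assigned to 13513 of 22746 probe sets, several genes to 503 and no gene to 8730. The platform annotation can be old, and symbols were updated through the RefSeq table of TAIR10.1, where 13436 matched a locus. The side comparison was fitted with limma 3.58.1 (mean-variance trend, Benjamini-Hochberg) on probe sets above the floor on at least 2 arrays. The steps were tested on simulated data. With 1 array per genotype there is no replicate, and the number of arrays limits the precision.

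The genes named were, per direction, the 15 largest called ones above the floor on all arrays, up to 6 with a side at the floor, called list members (up to 3 per family), the 5 largest not called, and the 3 nearest the threshold on each side of it. The members and the 38 lists were chosen with earlier results of these data known. Of 114 loci listed, 26 were named on the array, and 24 lists had a measured member. The lists not described above had no listed member called. The small bHLH, MYB, cytochrome P450, peroxidase and zinc finger lists had medians of -0.13, -0.53, -0.25, -0.44 and 0.07. The peroxidase median rests on 2 measured genes, SAPX and TAPX, and does not describe the family. FMA and SPCH, the measured genes of the trichome and stomata list, had a median of -0.12. Of the 38 lists, 22 were matched by words in gene names and synonyms. A family gene without such words was not counted and could still be among those called. Promoter and protein sequences were not used here, so the planned motif search was not run. The alternatives tried were other floors, centring, filters, call rules and limma settings, and leaving out each array.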

Additional observations from a re-analysis of the deposited data

How the results depend on the processing

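The count of 211 called probe sets became 434 (231 higher, 203 lower) when the floor was set at the 25th percentile (a signal of 14.8), 101 with it at the 60th, and 1812 with no floor. It was 61 when each mutant had to stand 2-fold from each other array, and 1097 with a 1.5-fold threshold. Array centring gave 201, quantile normalization 204, the all-array filter 170 and dropping the gap rule 256. Leaving out 1 array at a time gave between 262 (without as2-1) and 366 (without wild type or without AS2 overexpressing). In these settings a lone array has no gap to exceed and its side is not averaged. What either added to the counts was not tested. Of the 211 calls, 169 were kept without wild type, 173 without as1-1, 154 without as2-1 and 151 without AS2 overexpressing. The number past a limma adjusted p of 0.05 stayed at 0 under 8 alternatives, was 12 with the all-array filter, and lay between 1 (without as2-1) and 266 (without wild type) when 1 array was left out, 18 without as1-1 and 233 without AS2 overexpressing. The 46 called genes named by the rule kept the sign of their side difference under each setting tried, except EXLA2, AT4G22212 and AT3G04000, whose 4 arrays all lay under the 60th percentile floor. Of the 46, 27 kept their call with the floor at the 60th percentile, 45 with it at the 25th, 41 after centring and 42 after quantile normalization. Leaving out 1 array at a time kept between 32 (without wild type) and 40 (without AS2 overexpressing) of the 46. The 24 list medians were recomputed with array centring and quantile normalization only. Low signals, without a detection call, limit what the floor can resolve. No paired analysis was possible because each genotype has 1 array.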
